A study of Mus musculus with 19 samples.

Results

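Described here are 10 genes whose products coat lipid droplets, break down the triglyceride inside them, or hold lipases in check: *Plin2*, *Plin3*, *Cideb*, *Pnpla2*, *Abhd5*, *G0s2*, *Hilpda*, *Lipe*, *Mgll*, and *Angptl4*. They were taken as a fixed list, matched by symbol to the Ensembl gene IDs of the deposited files, and they are 10 of the 55487 genes listed there. All 10 were among the 17875 genes with enough counts to be tested, *G0s2* through the fasted mice alone, since no ad libitum–fed mouse had more than 2 counts of it.

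The crypts, pits in the intestinal epithelium in which stem, progenitor, and Paneth cells lie, came from 19 C57BL/6 mice aged 10 to 16 weeks, males and females, with 1 RNA library per mouse. There were 5 neurotensin wild-type mice (*Nt*+/+) and 4 neurotensin knockout mice (*Nt*-/-) on standard chow ad libitum, and 5 *Nt*+/+ and 5 *Nt*-/- mice that had water but no food for 48 hours. The paper describes its fed and fasted mice of both genotypes as carrying an *Lgr5*-EGFP allele, listed in its methods as Lgr5-EGFP-IRES-CreERT2. No Cre driver or cell type is given for the neurotensin knockout itself. Crypts were released with EDTA from the small intestine other than its most distal part. They were strained without sorting, so that every cell type of the preparation contributed RNA. The comparisons ask how a fast changes these genes in each genotype, how the genotypes differ in each diet, and whether the effect of the fast differs between them. Counts on genes ranged from 9059418 to 35068669 per mouse.

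Neutral lipid is stored in cytosolic droplets bounded by a phospholipid monolayer and by proteins of the perilipin and CIDE families. Lipolysis proceeds from triglyceride, cut by ATGL (*Pnpla2*) with its coactivator *Abhd5*, through diacylglycerol, cut by hormone-sensitive lipase (*Lipe*), to monoacylglycerol, cut by monoacylglycerol lipase (*Mgll*), while *G0s2* and *Hilpda* are small inhibitors of ATGL. Absorptive enterocytes are known for holding dietary fat in such droplets before they export it in chylomicrons, and *Angptl4* is a secreted inhibitor of lipoprotein lipase.

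Neurotensin is encoded by *Nts*, which lay between 4.98 and 8.59 CPM (read counts scaled to the TMM-adjusted size of each library) in *Nt*+/+ mice and at most at 0.793 CPM in *Nt*-/- mice. For fasted *Nt*+/+ replicate 5 the labels disagree, *Nt*+/+ standing in its title and *Nt*-/- in its genotype field. It had 5.43 CPM of *Nts*, above every *Nt*-/- mouse, and was kept in the group of its title. Markers of crypt cells were present, with *Lyz1* of Paneth cells between group means of 5990 and 7690 CPM and the stem cell marker *Olfm4* between 911 and 1810 CPM. *Lyz1* was not called with the fast. *Olfm4* was called lower in *Nt*+/+ mice (log2 fold change, −0.63; adjusted p = 0.0322, edgeR) and in *Nt*-/- mice (−0.92; adjusted p = 0.00409, edgeR). The stem cell markers did not fall as a list, since *Olfm4* was the only 1 of 7 called in *Nt*+/+ mice. In *Nt*-/- mice 2 of the 7 were called lower. None was called higher, and the medians of the 7 were 0.06 and −0.33, respectively. Enterocyte markers moved with the fast: 10 of 12 rose in *Nt*+/+ mice and 12 of 12 rose in *Nt*-/- mice, and their summed level went from 6090–12600 CPM to 12600–24800 CPM and from 9250–13900 CPM to 21600–30300 CPM, respectively. The 12 include *Fabp1*, which is also among the PPAR targets listed below. Of 8 adipocyte markers only *Cidec*, which enterocytes also express, could be tested, while *Adipoq* had 3 counts, *Plin1* 9, *Fabp4* 10, and *Lep* 1 over all 19 mice. In bulk crypt RNA, fewer cells of a type and less RNA per cell cannot be told apart, and the part of enterocyte content in the values below was not tested.

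The levels of the 10 genes in ad libitum–fed *Nt*+/+ crypts were compared per transcript length, on the deposited TPM scale. *Cideb* stood at 61.8 ± 10.8 TPM (SD, n = 5), *Pnpla2* at 50 ± 3.99 TPM, *Plin3* at 38.9 ± 7.55 TPM, and *Plin2* at 32.6 ± 2.82 TPM. *Cideb* and *Pnpla2* overlapped in range, *Pnpla2* and *Plin3* met at the edge, and *Plin3* and *Plin2* overlapped. *Lipe* followed at 17.1 ± 4.06 TPM and *Abhd5* at 8.75 ± 0.963 TPM, each apart from its neighbors. *Hilpda* (2.32 ± 0.482 TPM), *Angptl4* (2.22 ± 1.8 TPM), and *Mgll* (1.63 ± 0.346 TPM) overlapped with one another, and *G0s2* was lowest at 0.03 ± 0.0671 TPM, with no count in 4 of the 5 mice. After the fast *Angptl4* reached 25.3 ± 7.9 TPM in *Nt*+/+ mice, beside *Lipe* at 24.9 ± 6.34 TPM, and *Mgll* reached 8.38 ± 1.88 TPM, beside *Abhd5* at 9.2 ± 2.07 TPM. The means of the other genes kept their order in both genotypes.

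**Figure D1:**
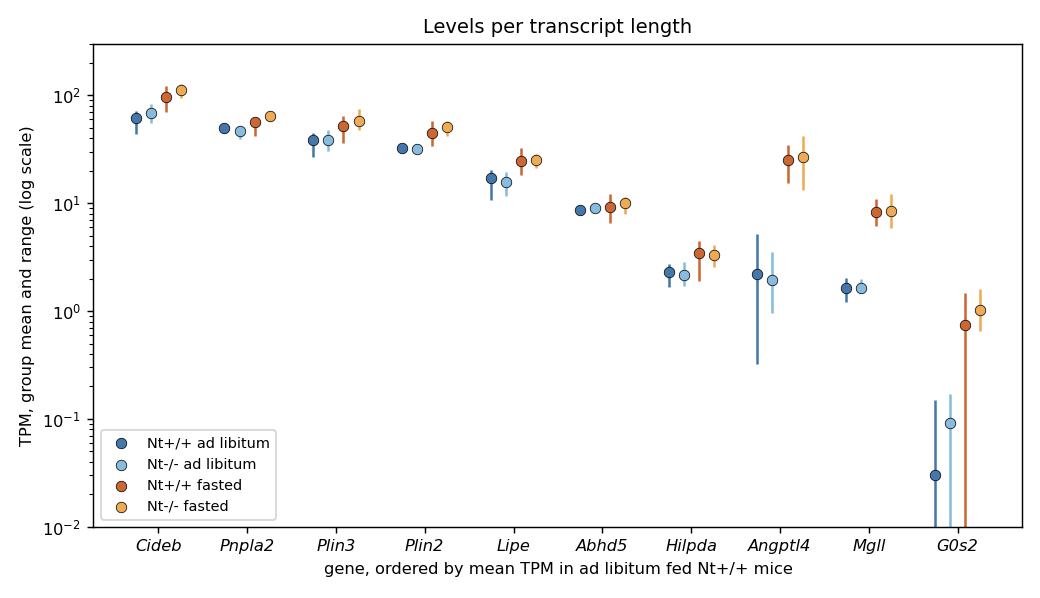
Level of each gene in deposited TPM (log scale) by group, with genes ordered by their mean in ad libitum–fed *Nt*+/+ mice. Points are group means and lines run from the lowest to the highest mouse, cut at the lower edge of the plot where a mouse was at 0. *Angptl4* and *Mgll* move from the low end of the order toward the level of *Lipe* and *Abhd5* in both fasted groups, and the group means of *Abhd5* stay between 8.75 and 10.1 TPM.

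Promoter sequence was examined because most of the 10 genes moved together with the fast. RefSeq windows of GRCm38.p6, running from 250 bases before to 50 bases after a start, were found for 9 of the 10 genes (12 windows), and *Angptl4* had none. The letters CACGTG, an E-box that reads the same on both strands, stood in 3 of the 12 windows, those of *Mgll*, *Lipe*, and *Plin2*, against 7.15% of all 32851 windows. They began at −44, −155, and −4 from the start, respectively. The shorter ACGTG, the core of the hypoxia response element and contained in CACGTG, stood on either strand in 5 of the 12 windows and 4 genes, the fourth being *Hilpda*, against 19.6% of all windows. GTAAACA, a forkhead motif, was present in windows of *Mgll* and *Lipe* (3.65% of all windows). A PPAR-type element, the direct repeat of AGGTCA with 1 base between the copies, was in none of the 12 windows on either strand (0.0396% of all), nor was the looser form with AGGNCA in both copies (0.381% of all). With shares this low, 12 windows are too few for the absence of a match to say anything about these genes. The sequences that follow are the upstream regions of *Mgll* and *Plin2*, which rose in both genotypes, and the surroundings of the matches in *Lipe* and *Hilpda*, 5′ to 3′ on the gene's strand with CACGTG (in *Hilpda*, ACGTG) in capitals and any other motif left in lower case.
*Mgll*, chr6:88724162-88724411, plus strand: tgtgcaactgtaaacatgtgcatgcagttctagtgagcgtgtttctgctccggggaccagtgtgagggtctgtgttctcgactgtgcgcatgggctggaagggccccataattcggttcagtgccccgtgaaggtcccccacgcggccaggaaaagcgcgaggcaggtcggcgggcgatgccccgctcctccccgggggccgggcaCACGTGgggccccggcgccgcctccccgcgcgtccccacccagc
*Plin2*, chr4:86670050-86670309, minus strand: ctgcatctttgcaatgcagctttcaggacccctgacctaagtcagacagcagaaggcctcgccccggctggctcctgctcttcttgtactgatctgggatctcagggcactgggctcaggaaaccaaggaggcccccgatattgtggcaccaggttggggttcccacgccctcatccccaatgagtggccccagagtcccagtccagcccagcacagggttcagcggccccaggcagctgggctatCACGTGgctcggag
*Lipe*, chr7:25396125-25396154, minus strand: aacagggacgacCACGTGagggggcggagg
*Hilpda*, chr6:29272570-29272599, plus strand: ggatggccagcggACGTGccccagggcgag
A match describes the letters of these windows and is no evidence of binding, and motifs outside them were not searched.

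After 48 hours without food, 7 of the 10 genes were called higher in *Nt*+/+ crypts and 8 of the 10 in *Nt*-/- crypts, and none was called lower. A gene was called where edgeR's quasi-likelihood test, adjusted over all 17875 genes, gave a p under 0.05. By the same rule 21.6% of all tested genes were called in *Nt*+/+ mice, 11.2% higher and 10.4% lower, and 25.2% in *Nt*-/- mice, 12.5% higher and 12.6% lower. The median log2 fold change of the 10 genes was 0.56 in *Nt*+/+ mice (range, 0.02–4.3) and 0.70 in *Nt*-/- mice (0.06–3.7), beside medians of −0.01 and −0.02 over all genes. Every fasted mouse lay above every ad libitum–fed mouse for 5 of the 10 genes in *Nt*+/+ mice (7.63% of all genes) and for 8 of the 10 in *Nt*-/- mice (10.5% of all genes). Without *G0s2*, which could pass the count filter only by being high in fasted mice, 6 of the other 9 genes were called higher in *Nt*+/+ mice and 7 of 9 in *Nt*-/- mice, with medians of 0.52 and 0.69, and 5 and 7 of the 9 did not overlap. Without the mouse whose labels disagree, 9 genes were called in *Nt*+/+ mice and 9 in *Nt*-/- mice. The fold changes fell into 2 ranges. *Angptl4*, *G0s2*, and *Mgll* changed more than 4-fold, and the other genes that were called changed by less than 1.7-fold.

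**Figure D2:**
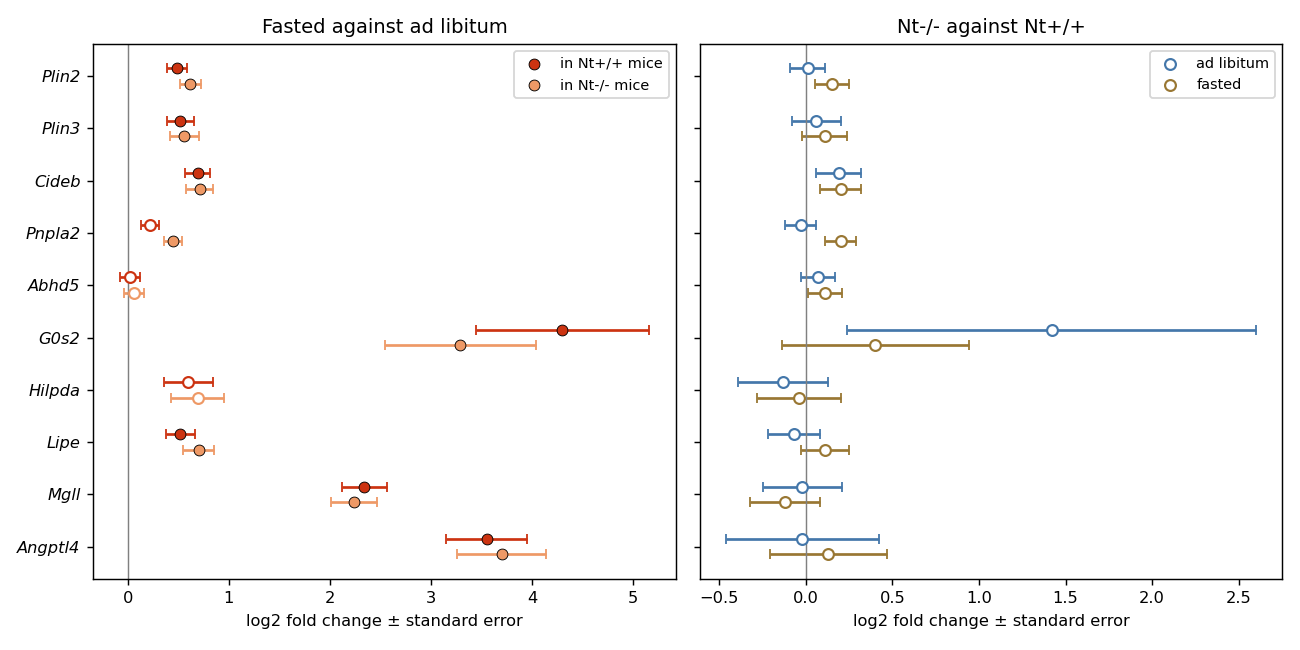
Log2 fold change of the 10 genes with fasting in each genotype (left) and between the genotypes in each diet (right), with bars of 1 standard error. Filled points passed an adjusted p under 0.05 and open points did not. *Angptl4*, *G0s2*, and *Mgll* lie between 2.24 and 4.3 with fasting, and every point between the genotypes is open.

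The droplet coat genes rose by similar amounts. *Plin2*, the perilipin that marks droplets in most cells outside fat tissue (ENSMUSG00000028494; chromosome 4, 86648386–86670060, minus strand), had 46.4, 44.9, 45.9, 39.6, and 45.4 CPM in the 5 ad libitum–fed *Nt*+/+ mice and 69.3, 68.4, 50.7, 56.4, and 66.8 CPM in the 5 fasted *Nt*+/+ mice. The *Nt*-/- mice had 48.7, 39.3, 42.8, and 48.5 CPM ad libitum and 79.5, 69.3, 60.3, 74.7, and 62.1 CPM after the fast. The fasted mice of both genotypes thus lay above all ad libitum–fed mice, with the lowest fasted value in *Nt*+/+ replicate 3. The log2 fold change was 0.49 in *Nt*+/+ mice (SE, 0.10; adjusted p = 0.0013, edgeR) and 0.62 in *Nt*-/- mice (SE, 0.10; adjusted p = 0.000219, edgeR).

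*Plin3*, a perilipin that moves between the cytosol and growing droplets (ENSMUSG00000024197; chromosome 17, 56277476–56292873, minus strand), had 90.2, 101, 118, 127, and 115 CPM in ad libitum–fed and 117, 148, 200, 176, and 147 CPM in fasted *Nt*+/+ mice. Fasted *Nt*+/+ replicate 1, at 117 CPM, lay within the ad libitum range and the other fasted *Nt*+/+ mice lay above it. Among *Nt*-/- mice *Plin3* had 133, 91.9, 104, and 132 CPM ad libitum and 157, 183, 173, 152, and 184 CPM after the fast, with no overlap. Its log2 fold change was 0.52 (SE, 0.13; adjusted p = 0.00782, edgeR) in *Nt*+/+ mice and 0.56 (SE, 0.14; adjusted p = 0.00601, edgeR) in *Nt*-/- mice. The ratio of *Plin2* to *Plin3* counts within a mouse was similar in both diets: its mean log2 value was −1.30 ± 0.27 and −1.32 ± 0.48 in ad libitum–fed and fasted *Nt*+/+ mice (SD, n = 5 each) and −1.35 ± 0.11 (n = 4) and −1.30 ± 0.28 (n = 5) in *Nt*-/- mice.

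*Cideb*, a CIDE family protein of droplets and of lipoprotein assembly (ENSMUSG00000022219; chromosome 14, 55754050–55758458, minus strand), had 50.4, 60.9, 64.8, 68.1, and 60.8 CPM in ad libitum–fed and 77.7, 95.5, 121, 117, and 81.2 CPM in fasted *Nt*+/+ mice. Without neurotensin it had 79.1, 64.3, 58.4, and 75.9 CPM ad libitum and 111, 118, 108, 99.6, and 130 CPM fasted. The diets did not overlap in either genotype. Its log2 fold change was 0.69 (SE, 0.12; adjusted p = 0.000528, edgeR) in *Nt*+/+ mice and 0.71 (SE, 0.13; adjusted p = 0.000622, edgeR) in *Nt*-/- mice. Of the 1488 exon bases of *Cideb*, 1136 (76.3%) are shared with exons of *Nop9* on the opposite strand, so that without a stated strand setting reads of the pair cannot be told apart. *Nop9*, a ribosome biogenesis factor, did not follow *Cideb*: its log2 fold change was −0.11 (SE, 0.07; adjusted p = 0.319, edgeR) in *Nt*+/+ mice and −0.20 (SE, 0.08; adjusted p = 0.0731, edgeR) in *Nt*-/- mice.

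**Figure D3:**
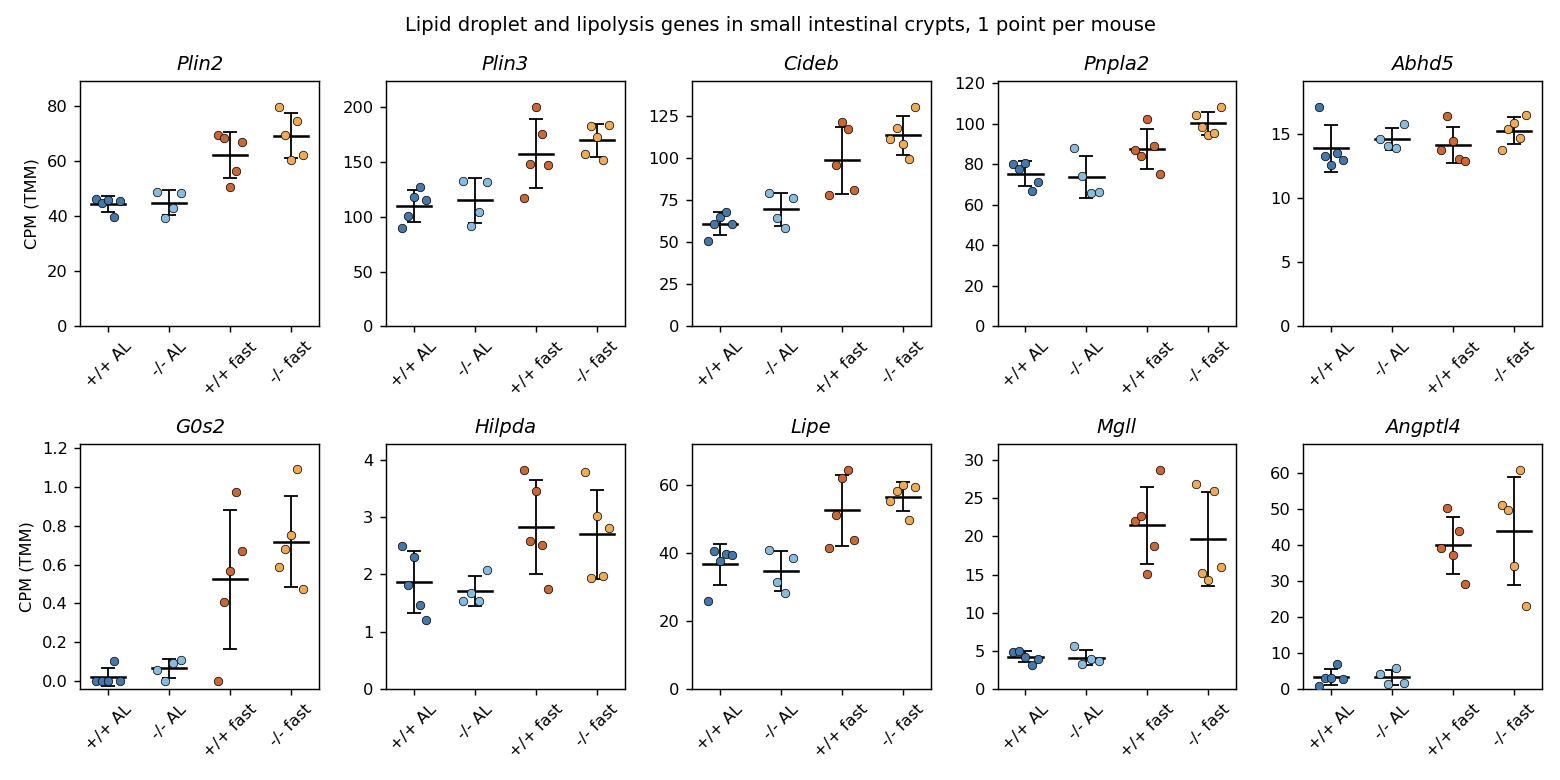
CPM of each gene in each of the 19 mice, by genotype (+/+ or -/-) and diet (AL, ad libitum; fast, 48 hours). Points are mice, the long bar is the group mean, and error bars are 1 SD. The fasted groups of *Mgll* and *Angptl4* stand clear of the ad libitum groups, and the 4 groups of *Abhd5* overlap.

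ATGL and its partners did not move as 1 group. *Pnpla2*, which encodes ATGL (ENSMUSG00000025509; chromosome 7, 141455198–141460743, plus strand), had 80.2, 77.5, 80.5, 66.7, and 71.4 CPM in ad libitum–fed and 86.9, 84.1, 102, 89, and 75 CPM in fasted *Nt*+/+ mice. Replicate 5 of the fasted group, the mouse with disagreeing labels, lay within the ad libitum range. The log2 fold change of 0.22 in *Nt*+/+ mice did not pass the test (SE, 0.09; adjusted p = 0.0903, edgeR), while without that mouse it was 0.27 and did pass (adjusted p = 0.0379, edgeR). *Nt*-/- mice had 88.1, 74.2, 65.5, and 66.3 CPM ad libitum and 104, 98.3, 94.4, 95.5, and 108 CPM fasted, with no overlap. It rose there by 0.45 on the log2 scale (SE, 0.09; adjusted p = 0.00182, edgeR). The difference between the effects in the 2 genotypes was 0.23 (95% interval, −0.04 to 0.51) and did not pass the test.

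*Abhd5*, or CGI-58, the coactivator that ATGL needs for full activity (ENSMUSG00000032540; chromosome 9, 122351608–122381524, plus strand), was the flattest of the 10 genes. Across the 4 groups its means lay between 13.9 and 15.3 CPM, and all 19 mice lay between 12.6 and 17.1 CPM. The log2 fold change was 0.02 in *Nt*+/+ mice (95% interval, −0.18 to 0.23; adjusted p = 0.904, edgeR) and 0.06 in *Nt*-/- mice (−0.15 to 0.28; adjusted p = 0.702, edgeR), so that a change of the size seen for *Plin2* lay outside both intervals. The mean log2 ratio of *Abhd5* to *Pnpla2* counts was −2.44 ± 0.18 ad libitum and −2.63 ± 0.18 fasted in *Nt*+/+ mice (SD, n = 5 each), and −2.32 ± 0.22 (n = 4) and −2.72 ± 0.13 (n = 5) in *Nt*-/- mice. The ratios of fasted *Nt*-/- mice (−2.92 to −2.57) met those of ad libitum–fed *Nt*-/- mice (−2.59 to −2.07) only at the edge, and no test of the ratio was run. *Abhd5* shares 950 of its 5956 exon bases with the antisense gene *A730085K08Rik*, which had 216 counts over all mice against 5070 for *Abhd5*.

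*G0s2*, the small protein that binds and inhibits ATGL (ENSMUSG00000009633; chromosome 1, 193272161–193273217, minus strand), was all but undetected in fed crypts. It had 0, 0, 0, 2, and 0 counts in ad libitum–fed *Nt*+/+ mice and 0, 6, 11, 17, and 12 counts in fasted ones. The *Nt*-/- mice had 2, 0, 2, and 2 counts ad libitum and 11, 6, 13, 11, and 9 counts after the fast. Of the fasted mice only *Nt*+/+ replicate 1 had no count. Pooled over mice and scaled for depth, fasted crypts held 26.2 times as much *G0s2* as ad libitum–fed crypts in *Nt*+/+ mice (46 against 2 counts; 95% interval, 6.86–223) and 10.4 times as much in *Nt*-/- mice (50 against 6 counts; 4.44–29.6). These intervals cover counting error only. *G0s2* passed the filter on low counts only through the fasted mice, so its calls in the edgeR test (adjusted p = 0.00144 and 0.0031) add nothing to these counts. The fitted log2 fold changes of 4.3 and 3.29 depend on the treatment of zeros and reached from 3.33 to 6.3 over the alternatives in *Nt*+/+ mice. Even after the fast *G0s2* remained far below the lipase it inhibits: it stood at 0.736 ± 0.522 TPM beside 56.3 ± 8.67 TPM of *Pnpla2* in *Nt*+/+ mice, and at 1.03 ± 0.382 TPM beside 64.9 ± 4.51 TPM in *Nt*-/- mice (SD, n = 5 each).

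*Hilpda*, the hypoxia-inducible droplet protein that also inhibits ATGL (ENSMUSG00000043421; chromosome 6, 29272488–29275446, plus strand), had 2.49, 1.82, 2.31, 1.47, and 1.21 CPM in ad libitum–fed and 3.82, 2.59, 3.45, 2.51, and 1.74 CPM in fasted *Nt*+/+ mice. The *Nt*-/- mice had 1.53, 1.68, 1.54, and 2.08 CPM ad libitum and 3.79, 1.93, 3.01, 1.97, and 2.80 CPM fasted. The diets overlapped in both genotypes, and these values rest on 17 to 71 counts per mouse. The log2 fold change was 0.60 in *Nt*+/+ mice (SE, 0.24; adjusted p = 0.0848, edgeR) and 0.69 in *Nt*-/- mice (SE, 0.26; adjusted p = 0.0604, edgeR), neither past the threshold. These calls moved with the choice of model, as when DESeq2 gave an adjusted p of 0.04 for *Hilpda* in *Nt*-/- mice, and with single mice. In *Nt*+/+ mice the adjusted p was 0.033 without fasted *Nt*+/+ replicate 5 (edgeR), and in *Nt*-/- mice it was 0.0467, 0.0433, and 0.0448 without fasted *Nt*+/+ replicate 5, fasted *Nt*-/- replicate 2, or fasted *Nt*-/- replicate 4 (edgeR).

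Downstream of ATGL, *Lipe* and *Mgll* both rose, by unequal amounts. *Lipe*, hormone-sensitive lipase (ENSMUSG00000003123; chromosome 7, 25379527–25398710, minus strand), had 25.9, 40.7, 37.5, 39.8, and 39.4 CPM in ad libitum–fed and 41.5, 51.1, 62, 64.4, and 43.8 CPM in fasted *Nt*+/+ mice. *Nt*-/- mice had 40.9, 31.5, 28.3, and 38.5 CPM ad libitum and 55.3, 58.2, 60.1, 49.7, and 59.4 CPM fasted. The diets did not overlap, although fasted *Nt*+/+ replicates 1 and 5 came within 4 CPM of the highest fed mouse. The log2 fold change was 0.52 (SE, 0.14; adjusted p = 0.00969, edgeR) in *Nt*+/+ mice and 0.70 (SE, 0.15; adjusted p = 0.00164, edgeR) in *Nt*-/- mice. *Lipe* shares 918 of its 5886 exon bases with the antisense gene *4732471J01Rik*, which had 939 counts over all mice against 15696 for *Lipe* and was not called with the fast (adjusted p = 0.69 and 0.996, edgeR).

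*Mgll*, which releases glycerol and the last fatty acid from monoacylglycerol (ENSMUSG00000033174; chromosome 6, 88724412–88828360, plus strand), had 4.85, 4.94, 4.16, 3.20, and 3.91 CPM in ad libitum–fed and 22, 22.7, 15.1, 18.8, and 28.7 CPM in fasted *Nt*+/+ mice. *Nt*-/- mice had 5.60, 3.30, 3.95, and 3.62 CPM ad libitum and 26.9, 15.2, 14.3, 25.9, and 16 CPM fasted. Every fasted mouse was above every fed mouse by a wide margin, the lowest fasted value being 14.3 CPM and the highest fed value 5.60 CPM. *Mgll* rose 5.08-fold in *Nt*+/+ mice (log2 fold change, 2.34; SE, 0.22; adjusted p = 4.07e-07, edgeR) and 4.71-fold in *Nt*-/- mice (2.24; SE, 0.23; adjusted p = 1.86e-06, edgeR). The fasted *Nt*-/- mice fell apart into replicates 1 and 4, above 25 CPM, and replicates 2, 3, and 5, at or below 16 CPM. The antisense gene *Gm26588* shares 167 of the 5077 exon bases of *Mgll* and rose in *Nt*+/+ mice from 0.226 to 0.918 CPM (log2 fold change, 1.95; adjusted p = 0.00398, edgeR). In *Nt*-/- mice it went from 0.304 to 0.665 CPM and was not called (1.15; adjusted p = 0.083, edgeR). The diets overlapped in both genotypes. The 175 counts of *Gm26588* over all mice stand against 4117 for *Mgll*.

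*Angptl4*, the secreted inhibitor of lipoprotein lipase and a known PPAR target (ENSMUSG00000002289; chromosome 17, 33773750–33781830, minus strand), had 0.864, 3.20, 3.04, 7.0, and 2.90 CPM in ad libitum–fed and 39.2, 50.2, 37.2, 43.9, and 29.1 CPM in fasted *Nt*+/+ mice. *Nt*-/- mice had 4.22, 1.52, 5.73, and 1.65 CPM ad libitum and 51.3, 49.8, 34.3, 60.9, and 23 CPM fasted. The lowest fasted mouse, at 23 CPM, stood well above the highest fed mouse, at 7.0 CPM, and the fed mice spread over a wider relative range than the fasted ones. *Angptl4* rose 11.7-fold in *Nt*+/+ mice (log2 fold change, 3.55; SE, 0.40; adjusted p = 4.78e-06, edgeR) and 13.0-fold in *Nt*-/- mice (3.70; SE, 0.44; adjusted p = 6.65e-06, edgeR). Its enzyme target was scarce in the same libraries: *Lpl* stayed at group means of 0.139 to 0.21 CPM and was too low to be tested.

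None of the 10 genes was called between the genotypes in either diet. In ad libitum–fed mice 0 of 10 passed the adjusted or an unadjusted p under 0.05 in edgeR (smallest unadjusted p, 0.164, for *Cideb*), where 0.00559% of all tested genes were called, namely *Nts*, and 299 of 17875 had an unadjusted p under 0.05. In fasted mice 0 of 10 were called, again beside 0.00559% of all genes, and 1 of the 10, *Pnpla2*, had an unadjusted p of 0.0374 (adjusted p = 0.5, edgeR), where 1634 of 17875 genes had an unadjusted p under 0.05. Fasted *Nt*-/- mice averaged 100 ± 5.96 CPM of *Pnpla2* and fasted *Nt*+/+ mice 87.3 ± 9.62 CPM (SD, n = 5 each), a log2 difference of 0.20 (SE, 0.09) with overlapping mice. For the genes other than *G0s2* the 95% intervals of the fasted difference, *Nt*-/- minus *Nt*+/+, reached at most from −0.60 to 0.87 (*Angptl4*), and those of *Plin2* (−0.05 to 0.36), *Plin3* (−0.17 to 0.39), *Lipe* (−0.19 to 0.40), and *Cideb* (−0.06 to 0.46) were narrower. For *G0s2* the interval was −0.75 to 1.56. DESeq2 called 98 genes between the fasted genotypes and none of the 10.

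The effect of the fast did not differ detectably between the genotypes for any of the 10 genes. In the test of that difference 0 of 10 were called, 0.0% of all genes were called (485 of 17875 had an unadjusted p under 0.05), and 0 of 10 had an unadjusted p under 0.05 (edgeR). The smallest unadjusted p was 0.0897, for *Pnpla2* (adjusted p = 1, edgeR). The difference, *Nt*-/- minus *Nt*+/+, was −0.11 for *Mgll* (95% interval, −0.76 to 0.55), 0.15 for *Angptl4* (−1.04 to 1.34), 0.14 for *Plin2* (−0.16 to 0.44), and 0.02 for *Cideb* (−0.37 to 0.40) on the log2 scale. For *G0s2* it was −1.01 (−3.60 to 1.57), an interval too wide to say much about that gene.

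Mice of 1 group still differed from one another, and some of the 10 genes differed together. After each group's mean was removed from log2 CPM, the deviations of *Plin3*, *Lipe*, and *Cideb* ran in parallel over the 19 mice: Pearson's r was 0.914 for *Lipe* with *Cideb* (Spearman's rho, 0.891), 0.891 for *Plin3* with *Cideb* (0.902), and 0.832 for *Plin3* with *Lipe* (0.818). With the 2 mice farthest from the median left out, r was 0.902, 0.839, and 0.793. A pair outside this group, *Plin2* and *Mgll*, had an r of 0.809 (rho, 0.828; 0.744 without the 2 farthest mice). These pairs were picked after their values were seen, out of 45 pairs that share libraries and depth, and no test was applied.

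The 2 groups of genes differed in how they ran with the 12 enterocyte markers. The deviation of *Lipe* had an r of 0.901 with the mean deviation of those markers, *Plin3* 0.865, and *Cideb* 0.829, over the same 19 mice. *Plin2* stood at −0.342, *Mgll* at −0.403, and *Hilpda* at −0.353, with *Pnpla2* at 0.00813 and *Abhd5* at −0.119, *Angptl4* at 0.427, and *G0s2* at 0.578. Over these deviations, pooled from the 4 groups, mice with more of the marker transcripts tended to have more *Lipe*, *Plin3*, and *Cideb*. They did not tend to have more *Plin2* or *Mgll*. The 12 markers include lipid genes such as *Fabp1* and *Apob*, and the part of enterocyte content in these values was not tested. Fasted *Nt*+/+ replicate 1, lowest of its group for *Plin3*, *Lipe*, and *Cideb*, was the highest of its group for *Plin2* and *Hilpda*.

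**Figure D4:**
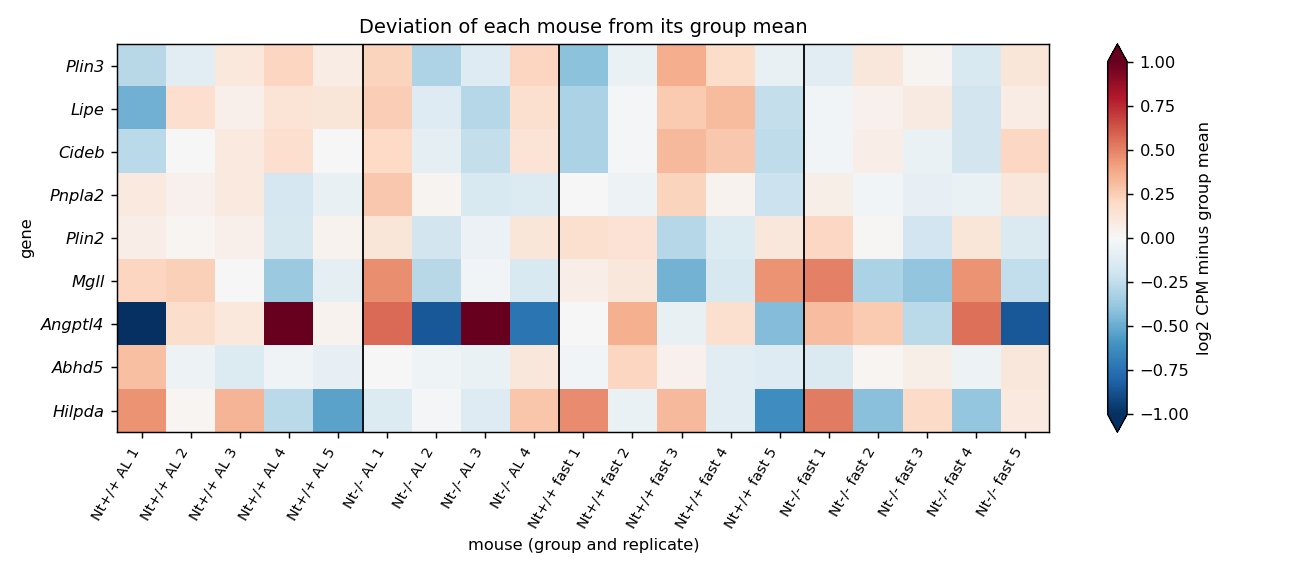
Deviation of each mouse from the mean of its group in log2 CPM, for 9 of the genes (rows) and 19 mice (columns). Colors are cut at 1 in either direction, which affects *Angptl4* in fed mice, and *G0s2* is left out for its low counts. The rows of *Plin3*, *Lipe*, and *Cideb* share their colors across mice, and those of *Plin2* and *Mgll* share another pattern.

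Each of the 10 genes was also set beside the gene whose log2 CPM was most like it over the 19 mice, group differences included. *Cideb* was closest to *Myo1a* (r = 0.983, and 0.941 for deviations within groups), a brush border myosin, *Plin3* to *Slc27a4* (0.97 and 0.916), a fatty acid transport protein, and *Lipe* to *Fgl2* (0.968 and 0.95). *Plin2* and *Mgll* were both closest to *Scarb2* (0.945 and 0.983, with 0.796 and 0.863 within groups), a lysosomal membrane protein. *Angptl4* was closest to *Mt2* (0.972 and 0.717), a metallothionein, *G0s2* to *Hlf* (0.927 and 0.733), a transcription factor of the PAR bZIP family, and *Pnpla2* to *Ncstn* (0.932 and 0.863), a gamma-secretase subunit. For *Abhd5* and *Hilpda*, which changed least or were low, the nearest genes were *AC158975.2* (0.772) and the pseudogene *Rpl31-ps8* (0.886), whose counts are uncertain because its reads resemble those of *Rpl31*. These are highest values out of all tested genes and carry no test.

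Around the 10 genes, 66 further droplet, lipase, and lipolysis genes were listed, of which 57 could be tested. In *Nt*+/+ mice 24 of the 57 rose and 3 fell, and in *Nt*-/- mice 25 rose and 5 fell, with median log2 fold changes of 0.30 and 0.35. Among all tested genes 11.2% rose and 10.4% fell in *Nt*+/+ mice, and 12.5% rose and 12.6% fell in *Nt*-/- mice. Of the 57 genes, 22 rose and 3 fell in both genotypes, and 0 were called between the genotypes in either diet or for the difference between the effects of the fast (edgeR).

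**Figure D5:**
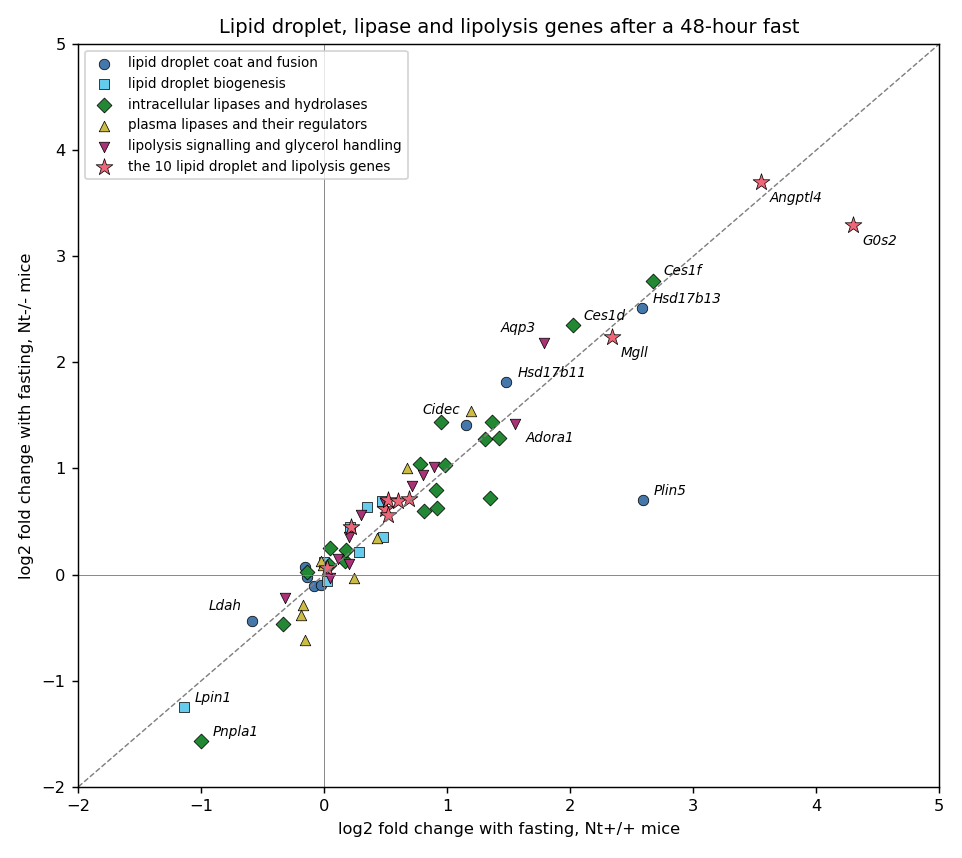
Log2 fold change with fasting in *Nt*+/+ mice (horizontal axis) and *Nt*-/- mice (vertical axis) for the 10 genes (stars) and 57 further droplet, lipase, and lipolysis genes (other symbols, by list). The dashed line marks equal change in both genotypes. Most points lie close to it, *Plin5* lies below it, and *G0s2* and *Plin5* rest on few counts.

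Among other droplet proteins, 4 of 9 tested coat and fusion genes rose and 1 fell in *Nt*+/+ mice, and 3 rose and 1 fell in *Nt*-/- mice. The droplet dehydrogenase gene *Hsd17b13* rose from 8.71 to 52.3 CPM in *Nt*+/+ mice and from 9.87 to 56.1 CPM in *Nt*-/- mice (log2 fold change, 2.58 and 2.51; SE, 0.19 and 0.20; adjusted p = 1.85e-08 and 6.15e-08, edgeR). Its relative *Hsd17b11* rose by 1.48 and 1.81 on the log2 scale (SE, 0.12 and 0.14). *Cidec*, which enlarges droplets by fusion, rose by 1.15 and 1.41 (SE, 0.20 and 0.21; adjusted p = 0.000393 and 8.96e-05, edgeR), whereas *Ldah*, a droplet-associated hydrolase, fell by 0.59 and by 0.44 (SE, 0.07 each). *Plin5*, the perilipin of oxidative tissues, rose in *Nt*+/+ mice (9 counts fed, 50 fasted; log2 fold change, 2.59; adjusted p = 0.00609, edgeR) and was not called in *Nt*-/- mice (32 and 41 counts; 0.70; adjusted p = 0.397, edgeR). The test of the difference did not pass for *Plin5* (unadjusted p = 0.0388, adjusted p = 1, edgeR). *Plin4* had log2 fold changes of −0.16 and 0.07 and was not called, and *Plin1* and *Cidea*, perilipin and CIDE genes of fat tissue, were too low to be tested.

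Among intracellular lipases and hydrolases 12 of 19 rose and 1 fell in *Nt*+/+ mice, and 11 rose and 1 fell in *Nt*-/- mice. *Abhd6*, a second enzyme that cuts monoacylglycerol, rose from 18.7 to 46.4 CPM in *Nt*+/+ and from 19.9 to 48.1 CPM in *Nt*-/- mice, by 1.31 and 1.28 on the log2 scale (SE, 0.12 and 0.13; adjusted p = 2.71e-07 and 9.26e-07, edgeR). The carboxylesterases *Ces1f* (2.67 and 2.77), *Ces2c* (1.42 and 1.29), *Ces1e* (1.36 and 1.44), and *Ces2e* (0.98 and 1.03) rose in both genotypes, and reads of such a gene family may be divided between near-identical members. *Pnpla3*, the closest relative of *Pnpla2*, had 22 to 50 counts per group and log2 fold changes of −0.34 and −0.47 that were not called. Of 12 tested genes of lipolytic signaling and glycerol handling, 5 rose in each genotype. They included *Prkacb*, a catalytic subunit of protein kinase A (0.71 and 0.83), *Gpd1*, which makes glycerol 3-phosphate (0.80 and 0.94), and *Adora1*, an adenosine receptor that restrains lipolysis in fat cells (1.55 and 1.42). Of 8 tested genes of droplet biogenesis 2 rose and 1 fell in *Nt*+/+ mice and 4 rose and 1 fell in *Nt*-/- mice. Of 9 tested genes of plasma lipases and their regulators 1 rose in *Nt*+/+ mice, and 2 rose and 2 fell in *Nt*-/- mice. In lists this short, counts of 1 or 2 genes do not stand apart from the shares over all tested genes.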

How the data were processed

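Ribosomal RNA–depleted libraries were sequenced as single-end reads, which the authors trimmed with Trimmomatic 0.39 and assigned to Ensembl transcripts of GRCm38 with RSEM. The version of RSEM and its strand setting are not given in the sources used here. The authors deposited, for each gene and mouse, RSEM's expected count, which divides reads that match several genes and is not normalized, and TPM, which is scaled by transcript length and to a fixed total. The deposited TPM values were used only for levels between genes, and FPKM and length columns were not used.

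Expected counts were rounded to whole numbers. Of 55487 gene IDs, 55227 matched the GENCODE vM21 annotation of GRCm38, which gave symbols and coordinates. Groups were taken from sample titles. Counts per mouse totaled 9059418 to 35068669 (median, 18541770). They were normalized by TMM and tested with the quasi-likelihood test of edgeR 4.0.16 (R 4.3.3) after filterByExpr, in 1 fit of 19 mice with a coefficient per group (15 residual degrees of freedom; common dispersion 0.0357, a biological coefficient of variation of 18.9%), with Benjamini-Hochberg adjustment over 17875 genes. Mice are the replicates, and the fit has no term for litter, although the paper describes its fed control mice as littermates. Standard errors were derived from the F statistic of each contrast, intervals are 95%, and log2 CPM for correlations used a prior count of 2. For *G0s2*, whose counts were near 0, the ratio of pooled counts is given with an exact 95% binomial interval.

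The 10 genes, the gene lists, and the markers were chosen with earlier results of these data known, so no count over them is independent evidence. The genes named beside the 10 are *Nts*; the 12 listed droplet and lipolysis genes, and 3 PPAR and 3 hypoxia targets, with the smallest larger p of the 2 fasting tests among those called with the same sign in both; the other perilipins and CIDE genes and *Pnpla3*; and the nearest gene of each of the 10. Overlapping and antisense genes, *Lpl*, and genes labeled only in a plot were added after their values were seen. Results were recomputed without a count filter, with a minimum of 10 counts in each mouse, with scaling by upper quartiles, with DESeq2 size factors, in DESeq2 1.42.0 and limma voom (limma 3.58.1), with a block for either replicate number, with sex as a covariate, with the mouse of disagreeing labels as *Nt*-/-, with only the groups compared, and without each mouse in turn. Correlations were computed with Python 3.11.15 and pandas 2.3.3.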

Additional observations from a re-analysis of the deposited data

Results flagged for a closer look

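Among the 10 genes and 4 groups, 40 sets of values were checked for a mouse that stood far from the rest of its group (Dixon's 95% criterion), and 4 were found, all in ad libitum–fed *Nt*+/+ mice. Chance alone marks about 1 set in 20. Replicate 1 had the lowest *Lipe*, at 25.9 CPM against 37.5 to 40.7 CPM in the other 4 mice, and the highest *Abhd5*, at 17.1 CPM against 12.6 to 13.5 CPM. It also had the lowest *Plin3*, *Cideb*, and *Angptl4* of its group. Replicate 4 had the lowest *Plin2*, at 39.6 CPM against 44.9 to 46.4 CPM, and was the only mouse of its group with any *G0s2*, at 0.102 CPM against 0 in the others. That *G0s2* value is 2 counts. With 0 in the other 4 mice any count would have been marked, so the rate of 1 set in 20 does not apply to *G0s2* there. Leaving out replicate 1 or replicate 4 changed no call of the 10 genes.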

How the results depend on the processing

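The fold changes of the 10 genes were recomputed under 30 alternatives, 1483 values in all. In 1471 the side of the threshold was kept, in 12 a gene not called became called (*Pnpla2* and *Hilpda* with the fast), none of the calls was lost, and no called value turned its sign. *G0s2* could not be tested with at least 10 counts in every mouse or, in *Nt*+/+ mice and between the ad libitum–fed genotypes, with only the groups compared in the fit, an alternative that the difference between the effects of the fast does not have. With the fast, 594 of 597 values were above 0, the exceptions being *Abhd5* in *Nt*+/+ mice. The number of the 10 genes called with the fast was 6 to 9 in *Nt*+/+ and 8 to 9 in *Nt*-/- mice, and 0 between the genotypes throughout. *Hilpda* in *Nt*+/+ mice was also called with the mouse of disagreeing labels as *Nt*-/- (adjusted p = 0.0391, edgeR) and in *Nt*-/- mice by DESeq2 (adjusted p = 0.04) and with at least 10 counts in every mouse (adjusted p = 0.0416, edgeR). Counts over all genes moved more. Between the genotypes ad libitum, 0 genes were called with at least 10 counts in every mouse, 3 by DESeq2, and 0 with the relabeled mouse as *Nt*-/-, against 1. Fasted, these were 0, 98, and 0, against 1, and with each mouse left out in turn 1 to 4, the 4 being without *Nt*-/- fasted replicate 1. *Nts* itself fails the filter of 10 counts.

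Of 27 same-numbered pairs of mice, 19 deviated together at a correlation over 0.1 for the number in the titles (mean, 0.184; lowest, −0.127) and 24 for the number in the file names (mean, 0.227; lowest, 0.0672), against 17 and 12 of 108 pairs with different numbers (means, −0.0457 and −0.0565). Same-numbered mice were thus more alike, but not every pair was over 0.1. The paper states that its fed control mice were littermates, matched for sex and age. No source says whether the numbers mark litters or anything else, so the block was kept as an alternative. With the title number as a replicate block 8 and 9 of the 10 genes were called with the fast in *Nt*+/+ and *Nt*-/- mice (5006 and 5657 of all genes), and with the file number as a replicate block 9 and 8 (5484 and 5672). The genes gained were *Hilpda* in *Nt*+/+ mice with either block (adjusted p = 0.0406 and 0.0351, edgeR), *Hilpda* in *Nt*-/- mice with the title number (adjusted p = 0.0197, edgeR), and *Pnpla2* in *Nt*+/+ mice with the file number (adjusted p = 0.0444, edgeR). Either block called 0 of the 10 genes, and 1 gene in all, between the genotypes in each diet, and 0 for the difference between the effects of the fast. Depth limits *G0s2*, with at most 17 counts per mouse, and *Hilpda*, with at most 71.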

Other observations

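Of 22 listed PPAR targets outside the 10 genes, mostly enzymes of fatty acid oxidation, 21 could be tested, and 21 of 21 rose in *Nt*+/+ and in *Nt*-/- mice, with median log2 fold changes of 1.29 and 1.46. *Acaa2*, a mitochondrial thiolase, rose from 65.2 to 271 CPM and from 69.9 to 313 CPM (log2 fold change, 2.05 and 2.16; SE, 0.09 and 0.10; adjusted p = 1.33e-11 and 2.53e-11, edgeR). *Acot1*, an acyl-CoA thioesterase, rose by 4.32 and 4.46 (SE, 0.25 and 0.27), and *Acadl*, a long-chain acyl-CoA dehydrogenase, by 2.06 and 2.28 (SE, 0.13 and 0.15). *Fabp1*, 1 of the 21, is also counted among the enterocyte markers. Among all tested genes 11.2% rose and 10.4% fell with the fast in *Nt*+/+ mice, and 12.5% rose and 12.6% fell in *Nt*-/- mice. These shares also stand beside the lists below. None of the 21 PPAR targets was called between the genotypes in either diet.

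The 19 listed hypoxia targets outside the 10 genes did not move together. In *Nt*+/+ mice 2 rose and 4 fell, and in *Nt*-/- mice 4 rose and 4 fell, with median log2 fold changes of −0.16 and 0.01. *Ndrg1* rose by 1.71 and 1.84 (SE, 0.12 and 0.13) and the mitophagy receptor gene *Bnip3* by 1.17 and 1.36 (SE, 0.18 and 0.19), whereas *Ldha*, lactate dehydrogenase A, fell by 0.42 and by 0.45 on the log2 scale (SE, 0.09 and 0.10). *Hilpda*, itself a hypoxia target, had log2 fold changes of 0.60 and 0.69 that were not called.

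Among markers of other cells, 0 of 7 stem cell markers were called higher and 1 lower in *Nt*+/+ mice, with 0 and 2 in *Nt*-/- mice. *Olfm4* was lower in both and *Smoc2* in *Nt*-/- mice. *Lgr5* had log2 fold changes of 0.29 and −0.02 and *Ascl2* of 0.63 and 0.12, none called. By quantitative PCR the paper reports both as raised by fasting in *Nt*+/+ but not *Nt*-/- mice. From its RNA sequencing the paper proposes that stem cell genes rose in fasted *Nt*+/+ mice, and states that not all reached significance. By in situ hybridization in the distal intestine it reports more *Lgr5* copies per crypt cell after the fast in *Nt*+/+ mice, without a significant rise in *Nt*-/- mice. The medians of the 7 markers were 0.06 and −0.33. Of 7 goblet cell markers 1 rose and 2 fell, and 1 rose and 3 fell, respectively, and of 7 Paneth cell markers 0 were called in *Nt*+/+ mice and 1 fell in *Nt*-/- mice. Of 7 enteroendocrine markers 1 rose in each genotype, and of 5 tested tuft cell markers 0 were called. Of 7 immune markers 1 fell in each genotype, and of 2 endothelial, 4 stromal, 3 muscle, and 1 pancreatic acinar markers tested 0 were called. The endothelial gene *Gpihbp1*, which carries lipoprotein lipase, had 0.0197 CPM or less in every group mean.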
